A study of Mus musculus with 18 samples.

Results

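The astrocyte cultures kept under tumor necrosis factor (TNF) were compared at 72 h and at 24 h of differentiation, over all genes of the deposited count table. Members were the 3 libraries named for 24 h with TNF and the 3 named for 72 h with TNF, that is 6 of the 18 libraries of the series. Neural stem cells were taken at embryonic day 14 (E14) from the ventricular zone of wild type C57BL/6J brains, each culture from a single brain, and were grown as neurospheres (NSPs) with epidermal growth factor. To differentiate them, the medium was replaced by DMEM with 10% fetal bovine serum on poly-L-ornithine, and TNF was given at 50 ng/ml. All 6 libraries share the strain, the serum and the TNF, so that the groups differ by the time in both serum and cytokine, which cannot be told apart here. The other 12 libraries, 3 each, were proliferating NSPs and untreated cells at 24 h, 72 h and 1 week. The untreated 24 h and 72 h cells, in the same serum without TNF, serve below as the comparison. Serum-grown cultures of embryonic neural stem cells are a limited model of astrocytes in tissue. The labels number the replicates without tying them to separate animals, and p-values then measure the spread between these samples, which may be technical.

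An astrocyte arises from a neural stem cell that leaves the cell cycle, gives up stem cell proteins and takes on glutamate transporters, water channels and intermediate filaments such as GFAP. TNF binds receptors on these cells and activates NF-κB, a family of transcription factors kept in the cytoplasm by inhibitor proteins such as NFKBIA. NF-κB drives chemokines, complement components and its own inhibitors, so that the response contains its own brake. Under inflammation astrocytes become reactive and change their filaments, their secreted proteins and the matrix around them.

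The TNF-treated libraries held 13551076 to 17775113 counts, and levels are given as CPM, counts scaled to a common effective library size, in the order of replicates 1, 2 and 3. Replicate 1 stood apart at both times. Its share of mitochondrial counts was 6.241% at 24 h and 8.006% at 72 h, against 2.426% to 3.665% in the other 4 libraries. The SD of the log2 ratio to its group's other replicates was 0.608 to 0.648, against 0.411 at 24 h and 0.397 at 72 h between replicates 2 and 3. Deviations of same-numbered libraries from their group means correlated only weakly over genes, at 0.291, 0.255 and 0.266. Changes within a pair of equal number are given where they matter.

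The labelled cell type was checked on marker genes. *Slc1a3*, the glutamate transporter GLAST, stood at 2041, 2958 and 2858 CPM at 24 h TNF and at 1676, 2399 and 2170 CPM at 72 h TNF. *Aqp4*, the astrocyte water channel, stood at 1056, 478.0 and 459.1 CPM at 24 h TNF and at 922.2, 555.7 and 458.5 CPM at 72 h TNF. All 9 astrocyte markers were tested, of which 3 (*Aldoc*, *S100b* and *Aldh1l1*, given below) were called lower at 72 h TNF and none higher, with 4 lower in the fit with the replicate number as a block. Without 24 h TNF replicate 1, 2 were called higher, and 1 without 72 h TNF replicate 3. Of the 8 microglial markers, 3 reached the minimum for a test, *Tmem119*, *Itgam* and *Ptprc* had at most 3 counts in every TNF-treated library, and edgeR called none of the 3 tested (0 at an unadjusted p under 0.05, 0 by DESeq2). The 6 endothelial markers, of which *Cdh5* and *Cldn5* were at or under 3 counts and 4 were tested, summed to 5.17 to 5.9 CPM at 24 h TNF and 3.66 to 3.82 CPM at 72 h TNF. The 8 markers of mural cells and fibroblasts summed to 49.4, 38.3 and 51.7 CPM at 24 h TNF and to 81.9, 22.1 and 26.0 CPM at 72 h TNF, highest in replicate 1 at 72 h. Of these 8, *Lum* and *Col1a2* were at or under 3 counts, 3 were tested and 1 was called lower, which it was not with replicate 1 of 24 h TNF, or replicate 2 or 3 of either group, left out. Summed over the 8 neuronal markers, levels were 50.5 to 69.8 CPM at 24 h TNF and 22.8 to 28.1 CPM at 72 h TNF. Summed levels of the 6 ependymal markers were 96.2 to 170.0 CPM at 24 h TNF and 239.0 to 308.0 CPM at 72 h TNF. In such bulk samples, fewer cells of a type and less RNA per cell cannot be told apart.

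Which genes moved between 24 h and 72 h under TNF was asked with edgeR's quasi-likelihood test over all 18 libraries, calling genes at a Benjamini-Hochberg adjusted p under 0.05. Of 20067 genes tested, 2670 were called, which is 13.3%. At 72 h TNF 1079 genes were higher, 5.38% of those tested, and 1591 were lower, 7.93%. The call was most sensitive to the 24 h TNF libraries: it counted 1233 genes (5.97%) without replicate 2, 1409 (6.82%) without replicate 3 and 3802 (18.5%) without replicate 1. Without 72 h TNF replicate 1, 2 or 3 it counted 2530 (12.3%), 1850 (8.97%) and 1620 (7.86%). The share higher was then 8.63%, 2.43% and 2.6% without 24 h TNF replicates 1, 2 and 3 and 5.54%, 3.66% and 3.1% without 72 h TNF replicates 1, 2 and 3. The share lower was 9.83%, 3.54% and 4.22%, and 6.76%, 5.31% and 4.76%, in the same order, and counts of lists below are read against these. With each of the 6 libraries left out in turn, 1010 genes kept the call and the direction, 383 of them higher and 627 lower at 72 h. Replicate 1 was often intermediate. For 78.6% of the 3802 genes, 24 h TNF replicate 1 lay between the mean of 24 h TNF replicates 2 and 3 and the 72 h TNF mean. For 63.6% of the 2530 genes, 72 h TNF replicate 1 lay between the 24 h TNF mean and the mean of 72 h TNF replicates 2 and 3.

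A fit of the 6 TNF-treated libraries alone, with the replicate number as a block, called 2311 of 18253 genes, or 12.7%, with 5.45% higher and 7.22% lower. Without the block that fit called 828 genes, 4.54%, with 1.85% higher and 2.69% lower. In 18253 genes tested in both fits, 1715 were called in both with the same direction and none in opposite directions, 798 were called in the 18-library fit alone and 596 in the blocked fit alone. Below, the blocked p is given where it changes a call. The CPM of 24 h TNF and 72 h TNF did not overlap for 5474 of 20067 tested genes, 27.3%. Single genes without overlap are read beside this share.

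The gene with the largest rise among those that met every naming requirement was *Fgfbp1*, which encodes a secreted carrier of fibroblast growth factors (chr5:43978858-43981779, minus strand, mm10). It stood at 1.01, 0.895 and 0.708 CPM at 24 h TNF and at 10.5, 20.4 and 19.0 CPM at 72 h TNF. The log2 fold change was 4.25 ± 0.34 (SE), with an adjusted p of 1.95e-06. No overlap between the groups was among those requirements, and replicate 1 rose least. *Prelp*, a small matrix proteoglycan, rose from 4.6, 3.28 and 5.84 CPM to 42.7, 28.7 and 33.2 CPM (log2 fold change 2.92 ± 0.3, adjusted p = 8.73e-06), here with replicate 1 highest at 72 h.

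*Slco1a4*, an organic anion transporter, stood at 10.0, 35.3 and 28.5 CPM at 24 h TNF and at 68.6, 315.6 and 263.0 CPM at 72 h TNF. Replicate 1 was lowest in both groups and still rose (log2 fold change 3.13 ± 0.45, adjusted p = 0.000201). Its paralog *Slco1a6* was also called (log2 fold change 3.19 ± 0.48), and since the paralogs are alike in sequence the division of reads between them is uncertain. Others in the same set of 12 were *Ucma*, a cartilage matrix protein, with a log2 fold change of 3.27, *Hpcal4*, a neuronal calcium sensor, with 2.85, and *Col8a2*, a short-chain collagen, with 2.84. *Ucma* rose least in replicate 1, to 2.7 CPM at 72 h, against 12.0 and 11.8 CPM in replicates 2 and 3. A further 5 of the 12 are described with their groups below.

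**Figure D1:**
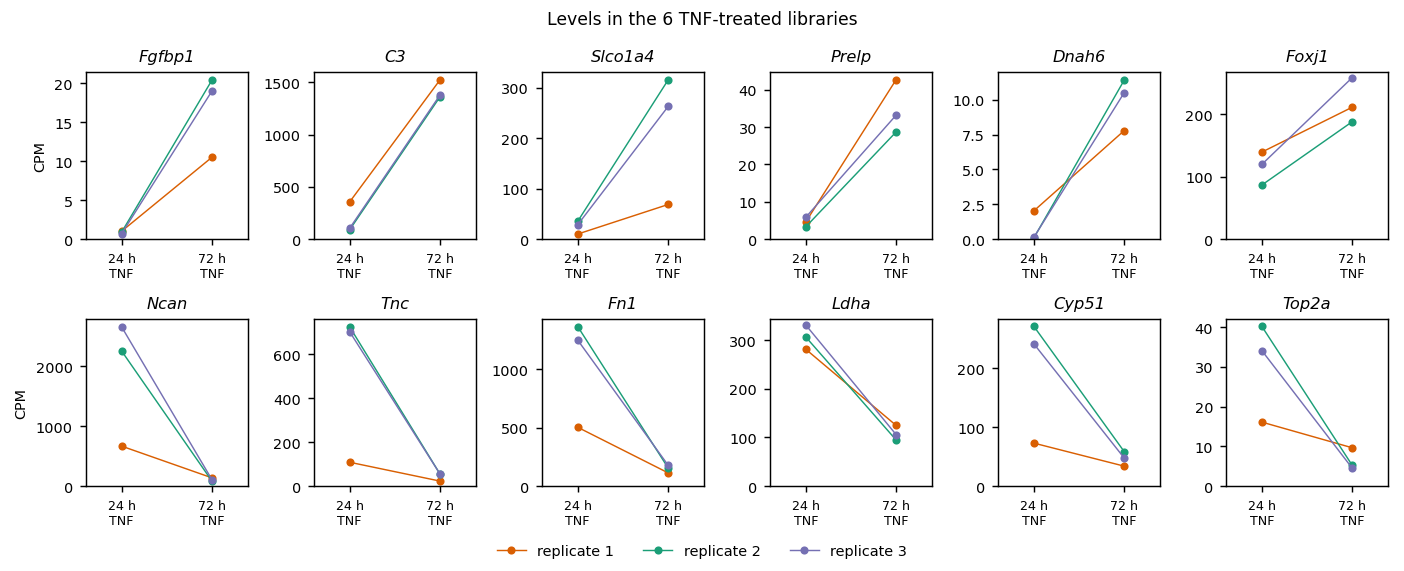
Levels of 12 genes in the TNF-treated libraries, in CPM on linear axes that start at 0, with lines joining libraries of the same replicate number. No gene shown overlaps between 24 h and 72 h, which the naming rule required of those among the 12 largest rises and falls. Of all tested genes, 27.3% did not overlap. Replicate 1 lies apart for several genes, as for *Ncan*, with 667.7 CPM at 24 h against 2257 and 2660 CPM.

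The largest fall by the same rule was that of *Diras2*, a small GTPase of the Ras family (chr13:52504380-52531279, minus strand). It stood at 16.9, 154.5 and 151.1 CPM at 24 h TNF and at 2.25, 1.92 and 1.25 CPM at 72 h TNF (log2 fold change -5.88 ± 0.59, adjusted p = 8.58e-06). Replicate 1 was already low at 24 h. *Disp3*, a membrane protein with a sterol-sensing domain, fell from 31.1, 156.0 and 214.9 CPM to 4.85, 2.32 and 2.82 CPM (log2 fold change -5.32 ± 0.49). *Myh8*, a perinatal myosin heavy chain, fell from 9.01, 22.4 and 17.5 CPM to 0.282, 0.696 and 0.563 CPM (log2 fold change -4.97 ± 0.37, adjusted p = 3.27e-07).

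*L1cam*, a neural cell adhesion molecule, fell from 9.95, 16.9 and 13 CPM to 0.507, 0.812 and 1.19 CPM (log2 fold change -3.99 ± 0.29, adjusted p = 3.27e-07). *Slc8a3*, a sodium-calcium exchanger, fell from 13.4, 22 and 22.9 CPM to 2.76, 1.97 and 1.88 CPM (log2 fold change -3.13 ± 0.23, adjusted p = 3.27e-07). The groups did not overlap for either gene, which the naming rule required. Also among the 12 were *Serpinf1*, a secreted serpin, with a log2 fold change of -4.03, *Pcp4*, a calmodulin regulator, with -3.75, *Slc2a13*, a myo-inositol transporter, with -3.28, and *Nav1*, a neuron navigator, with -3.27. The remaining 3, *Ncan*, *Tnr* and *Tnc*, encode matrix proteins of the developing brain and are given with the matrix.

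In 23 lists of genes, 159 of 503 tested members were called at 72 h TNF against 24 h TNF, 59 higher and 100 lower. Counts of a list are read beside the 5.38% of all genes called higher and the 7.93% called lower. The median log2 fold change over all genes was 0.005.

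**Figure D2:**
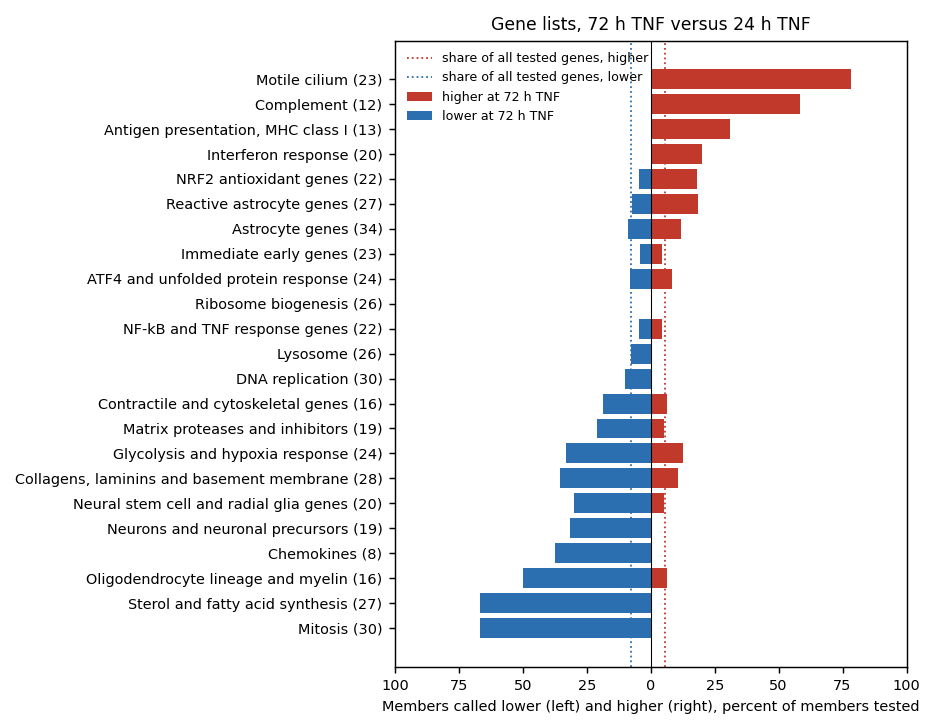
Percent of tested members called lower (left, blue) and higher (right, red) at 72 h TNF against 24 h TNF in each of the 23 lists, with the number tested in parentheses. Dotted lines mark the same share over all tested genes, 7.93% lower and 5.38% higher. The motile cilium list extends farthest to the right, with 18 of 23 members higher, and the mitosis and sterol lists farthest to the left.

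Of 34 tested members of the astrocyte list, which holds these markers, 4 were called higher and 3 lower, 11.8% and 8.82% against 5.38% and 7.93% of all genes, with a median log2 fold change of 0.05. Without 24 h TNF replicate 1, 8 were called higher. The blocked fit called 7 lower, as did the fit without 72 h TNF replicate 1, and the fit without 72 h TNF replicate 2 called 5. *Clu*, the secreted chaperone clusterin (chr14:65968483-65981547, plus strand), stood at 100.8, 82.8 and 87.6 CPM at 24 h TNF and at 243.4, 343.8 and 367.0 CPM at 72 h TNF (log2 fold change 1.81 ± 0.19, adjusted p = 1.06e-05). *Gpld1*, a phospholipase that releases GPI-anchored proteins, stood at 7.68, 7.23 and 8.79 CPM and then at 21.7, 27.9 and 28.5 CPM (log2 fold change 1.72 ± 0.19, adjusted p = 2.13e-05). *Mt3*, the brain metallothionein, rose from 213.4, 137.7 and 175.8 CPM to 347.8, 260.3 and 305.6 CPM (log2 fold change 0.79 ± 0.18, adjusted p = 0.00726). For these 3 genes all 72 h libraries exceeded all 24 h libraries, where 27.3% of all tested genes had groups without overlap.

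Falling astrocyte genes included *Aldoc*, the brain aldolase, which went from 450.6, 598.4 and 652.8 CPM to 212.9, 183.6 and 189.7 CPM (log2 fold change -1.54 ± 0.18, adjusted p = 2.27e-05). *S100b*, a calcium-binding protein of glia, went from 63.3, 47.2 and 50.2 CPM to 29.2, 23.9 and 20.3 CPM (log2 fold change -1.13 ± 0.19, adjusted p = 0.000664). *Aldh1l1*, the folate enzyme used as a general astrocyte marker, went from 50.2, 18.7 and 22.1 CPM to 14.3, 10.6 and 12.1 CPM (log2 fold change -1.3 ± 0.29, adjusted p = 0.00613). None of these 3 overlapped between the groups. *S100b* and *Dip2a* overlap on opposite strands.

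*Gfap*, the main astrocyte filament (chr11:102887336-102900912, minus strand), stood at 1871, 463.0 and 596.5 CPM at 24 h TNF and at 1022, 217.0 and 229.1 CPM at 72 h TNF. Replicate 1 was highest in both groups, so that the groups overlapped, while each pair of equal number was lower at 72 h, with log2 changes of -0.87, -1.09 and -1.38. The 18-library test did not call *Gfap* (log2 fold change -1.0 ± 0.54, adjusted p = 0.254). The blocked fit did (log2 fold change -1.09, adjusted p = 0.0113), as did the 18-library fit without 72 h TNF replicate 1 (log2 fold change -2.11, adjusted p = 0.00983). *Slc1a3*, *Aqp4* and *Slc1a2*, the glutamate transporter GLT1, did not pass the test, with adjusted p-values of 0.214, 0.965 and 0.115. *Slc1a2* was called higher without 24 h TNF replicate 1 (log2 fold change 0.75, adjusted p = 0.0428) and without 72 h TNF replicate 3 (0.76, 0.0461). *Vim*, the intermediate filament vimentin, stood at 3505, 3470 and 3790 CPM and then at 2676, 3321 and 3614.5 CPM (log2 fold change -0.16 ± 0.15, adjusted p = 0.534).

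The motile cilium list had the largest share of called members. Of its 23 tested members, 18 were called higher at 72 h TNF and none lower, 78.3% against 5.38% of all genes, with a median log2 fold change of 1.72. The blocked fit called 11 higher, and 21 of the 23 were higher in all 3 pairs. Over all genes 53.5% had the same sign in the 3 pairs. *Foxj1*, the transcription factor that directs the motile cilium program (chr11:116330704-116335399, minus strand), stood at 139.2, 86.5 and 119.5 CPM and then at 211.1, 187.9 and 258.5 CPM (log2 fold change 0.93 ± 0.2, adjusted p = 0.00529). *Dnah6*, an inner arm dynein heavy chain, stood at 2.02, 0.0746 and 0.118 CPM at 24 h TNF and at 7.78, 11.4 and 10.5 CPM at 72 h TNF (log2 fold change 3.7 ± 0.55, adjusted p = 0.000259). Replicate 1 was highest at 24 h and lowest at 72 h.

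*Dnah2*, another inner arm dynein, rose from 4.98, 2.09 and 2.36 CPM to 22, 20.0 and 25.3 CPM (log2 fold change 2.83 ± 0.3, adjusted p = 1.06e-05). *Drc7*, a subunit of the nexin-dynein regulatory complex, rose from 2.96, 0.373 and 0.59 CPM to 16.5, 10.6 and 10.5 CPM (log2 fold change 3.24 ± 0.45, adjusted p = 0.000212). Both belong to the 12 largest rises and were not in the list. *Tekt4*, a tektin filament of the axoneme, had a log2 fold change of 2.47 ± 0.57 (adjusted p = 0.00765). *Dnah5*, an outer arm dynein, stood at 22, 4.62 and 4.72 CPM and then at 31.2, 37.8 and 36.3 CPM (log2 fold change 1.74 ± 0.39, adjusted p = 0.00637). With the block, *Dnah5* was not called (adjusted p = 0.0597), nor was *Spag6l*, a central pair protein (adjusted p = 0.0969 against 0.00259). In brain, motile cilia belong to ependymal cells. Of their 6 markers *Foxj1*, *Ccdc153* and *Dnah5* were called higher, all 3 of them also in the cilium list, and *Tmem212* was at or under 3 counts. The part of such cells in the cilium result was not tested.

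The promoter of *Dnah6* is shown because its list moved together and because ciliary genes are known targets of RFX factors, which bind the palindromic X-box. The 250 bases before its start lie at chr6:73221632-73221881 on the minus strand (RefSeq, GRCm38.p6), with capitals marking an X-box, searched on both strands as GTTNC followed by GNAAC after 3 or 4 bases.
*Dnah6*: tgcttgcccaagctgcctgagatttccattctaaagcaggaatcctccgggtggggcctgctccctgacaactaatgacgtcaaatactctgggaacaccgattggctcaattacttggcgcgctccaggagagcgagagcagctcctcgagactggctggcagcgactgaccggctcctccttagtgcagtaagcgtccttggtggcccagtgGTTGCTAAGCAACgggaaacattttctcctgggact
The X-box ends 23 bases before the start. Of 30 cilium genes, 25 had a promoter in the table and 8 of them held these letters, 32.0% against 1.69% of 27025 promoters. A match is a description of the sequence and not of binding.

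Complement genes were called higher at 72 h TNF in 7 of 12 members tested, 58.3%, and lower in none, with a median log2 fold change of 1.06. Without 24 h TNF replicate 2, or without replicate 3, 4 were called, and without 24 h TNF replicate 1 there was 1 lower. *C3*, the central component on which the complement pathways converge (chr17:57203970-57228136, minus strand), stood at 356.0, 89.6 and 104.2 CPM at 24 h TNF. At 72 h TNF it stood at 1525, 1363 and 1380 CPM (log2 fold change 2.96 ± 0.47, adjusted p = 0.000488). Replicate 1 was highest at 24 h, and the 3 libraries were close together at 72 h. *C1s1*, the protease of the C1 complex, rose from 12.8, 7.01 and 4.54 CPM to 46.0, 37.1 and 28.3 CPM (log2 fold change 2.19 ± 0.31, adjusted p = 0.000169). *C1ra*, which activates it, rose from 5.1, 2.91 and 2.36 CPM to 14.9, 9.69 and 9.32 CPM (log2 fold change 1.71 ± 0.3, adjusted p = 0.00107).

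*Serping1*, the inhibitor of both C1 proteases, also rose, from 4.09, 3.8 and 4.25 CPM to 18.9, 8.94 and 7.38 CPM (log2 fold change 1.54 ± 0.28, adjusted p = 0.00126). *C4b* stood at 130.9, 32.7 and 46.8 CPM and then at 314.5, 147.8 and 160.2 CPM (log2 fold change 1.56 ± 0.4, adjusted p = 0.0147). Its call was lost without 24 h TNF replicate 2 (adjusted p = 0.0786), without 24 h TNF replicate 3 (0.084) and without 72 h TNF replicate 1 (0.0703). The recognition subunits *C1qa*, *C1qb* and *C1qc*, which in brain come from microglia, had at most 3 counts in every TNF-treated library.

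Of 22 tested genes of the NF-κB and TNF response, 1 was called higher and 1 lower, 4.55% each against 5.38% and 7.93% of all genes. *Nfkbie*, an inhibitor of NF-κB, rose from 19.3, 12.8 and 11.8 CPM to 25.5, 32.9 and 38.6 CPM (log2 fold change 1.14 ± 0.19, adjusted p = 0.000838). *Nfkbia* stood at 150.9, 134.8 and 160.9 CPM and then at 156.4, 146.4 and 158.0 CPM, with a log2 fold change of 0.04 ± 0.16 (adjusted p = 0.902). In untreated cells its mean was 27.5 CPM at 24 h and 22 CPM at 72 h. The subunit genes *Nfkb2* and *Relb* were not called (adjusted p = 0.113 and 0.143), except as higher without 24 h TNF replicate 1 (0.0252 and 0.0313). *Csf1*, the macrophage growth factor, stood at 185.8 to 216.6 CPM and then at 223.2 to 246.1 CPM, an increase that did not pass the test (adjusted p = 0.209). Without 24 h TNF replicate 1, 6 members were called higher, and 2 were without 72 h TNF replicate 1 or 2 and with the block. None was called lower without replicate 1 or 3 of 24 h TNF or replicate 2 or 3 of 72 h TNF.

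Chemokines fell where they were called, in 3 of 8 members tested, 37.5% against 7.93% of all genes. Without 72 h TNF replicate 1, 1 was called higher. *Ccl2*, which attracts monocytes (chr11:82035571-82037453, plus strand), stood at 25.1, 28.3 and 24.5 CPM at 24 h TNF and at 3.94, 3.77 and 4.38 CPM at 72 h TNF (log2 fold change -2.69 ± 0.3, adjusted p = 2e-05). Replicates were close together at both times, replicate 1 included. *Ccl7*, a related monocyte chemokine, fell from 3.09, 3.58 and 3.54 CPM to 0.958, 0.522 and 0.751 CPM (log2 fold change -2.18 ± 0.43, adjusted p = 0.00275). *Lcn2*, a secreted lipocalin of reactive astrocytes, stood at 14.8, 6.26 and 7.72 CPM and then at 7.66, 1.74 and 2.06 CPM. It was not called in the 18-library fit (adjusted p = 0.0936) and was called with the block (log2 fold change -1.48, adjusted p = 0.0245) and without 72 h TNF replicate 1 (-2.31, 0.00371).

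Interferon response genes were called higher in 4 of 20 members tested and genes of antigen presentation by MHC class I in 4 of 13, with none lower in either. These shares were 20.0% and 30.8%, against 5.38% of all genes. *Ifit3*, an antiviral effector, rose from 10.8, 6.04 and 4.72 CPM to 19.9, 24.6 and 21.9 CPM (log2 fold change 1.62 ± 0.28, adjusted p = 0.000866). *Ifit2* rose from 92.5, 75.8 and 69 CPM to 154.5, 206.5 and 167.2 CPM (log2 fold change 1.15 ± 0.17, adjusted p = 0.000272). *H2-D1*, a class I heavy chain, rose from 22.5, 11.9 and 14.8 CPM to 33.0, 44.4 and 51.1 CPM (log2 fold change 1.38 ± 0.24, adjusted p = 0.000938), though class I genes are near-identical and share reads. All 72 h libraries lay above all 24 h libraries for these 3 genes. The class I count was 2 without 24 h TNF replicate 2, without 24 h TNF replicate 3 or without 72 h TNF replicate 3, and 7 without 24 h TNF replicate 1, where the interferon count was 7.

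Of 27 genes of reactive astrocytes, 5 were called higher and 2 lower, 18.5% and 7.41% against 5.38% and 7.93% of all genes. The median log2 fold change of the list was -0.16. Without 24 h TNF replicate 2 or 3, 2 were called higher, and without 72 h TNF replicate 2 or 3, and with the block, 3 were. The lower count was 0 without 24 h TNF replicate 2 or 3 or 72 h TNF replicate 3 and 1 without 72 h TNF replicate 2 and with the block. Without 72 h TNF replicate 1 it was 5, against 4 higher. *Emp1*, a membrane protein of reactive cells, rose from 10.1, 6.11 and 4.84 CPM to 19.6, 19.4 and 17 CPM (log2 fold change 1.41 ± 0.23, adjusted p = 0.000653). *Icam1* and *Ptx3* had at most 3 counts in every TNF-treated library, as did *Il6*, *Il1b* and *Tnf* of the NF-κB list.

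Of 30 mitosis genes, all tested, 20 were called lower at 72 h TNF and none higher, 66.7% against 7.93% of all genes, with a median log2 fold change of -1.16. The blocked fit called 7 lower, and 26 were lower in all 3 pairs. *Top2a*, the topoisomerase of dividing cells, stood at 16.1, 40.2 and 34.1 CPM at 24 h TNF and at 9.64, 5.22 and 4.5 CPM at 72 h TNF (log2 fold change -2.21 ± 0.34, adjusted p = 0.000326). *Mki67*, the proliferation antigen Ki-67, stood at 14.4, 38.0 and 29.4 CPM and then at 10.0, 1.62 and 1.75 CPM (log2 fold change -2.59 ± 0.44, adjusted p = 0.000866). Its blocked p was 0.0781. In replicate 1 both genes were lowest at 24 h and highest at 72 h, so that the fall there was smaller. On the log2 scale *Mki67* changed by -0.5 in the pair of replicate 1, against -4.18 and -3.73 in the other pairs.

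*Bub1*, a spindle checkpoint kinase, had a log2 fold change of -3.1 ± 0.54 (adjusted p = 0.00094), and *Ccnb1*, the mitotic cyclin B1, of -2.53 ± 0.46 (adjusted p = 0.00132, and 0.0526 with the block). Genes of DNA replication were called lower in 3 of 30, 10.0%, near the 7.93% of all genes. Among the 3 was *Uhrf1*, which maintains DNA methylation (log2 fold change -1.96 ± 0.43, adjusted p = 0.0054, and 0.0773 with the block). The replication count was 6 without 24 h TNF replicate 1 and 1 without any of replicates 2 and 3 of either group. Of 26 ribosome biogenesis genes edgeR called none in the 18-library fit, and the blocked fit called 2 lower. At an unadjusted p under 0.05 the 18-library fit counted 1 higher and 3 lower, and DESeq2 called 0 and 0.

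The promoter of *Top2a* is printed because mitotic genes are known to share CCAAT boxes, the sites of NF-Y. Its 250 bases before the start lie at chr11:99024190-99024439 on the minus strand (RefSeq, GRCm38.p6), with CCAAT on either strand in capitals.
*Top2a*: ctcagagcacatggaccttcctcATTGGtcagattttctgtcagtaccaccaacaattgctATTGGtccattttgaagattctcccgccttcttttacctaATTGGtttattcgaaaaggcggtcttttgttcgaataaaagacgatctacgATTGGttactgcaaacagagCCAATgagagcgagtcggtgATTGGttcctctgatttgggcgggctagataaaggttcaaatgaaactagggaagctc
It holds 6 such boxes. Among 25 mitosis genes with a promoter in the table, 21 held at least 1 CCAAT, 84.0% against 34.3% of all promoters. The CHR element TTTGAA, also searched on both strands, was in 8, or 32.0% against 16.2%.

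Of 27 genes of sterol and fatty acid synthesis, all tested, 18 were called lower and none higher, 66.7% against 7.93% of all genes, with a median log2 fold change of -1.23. Without 24 h TNF replicate 2 the count was 9, and without replicate 3 it was 11. In the 6-library fit without the block it was 3, and with the block 16. Without 72 h TNF replicate 1, and with the block, 1 was called higher. *Cyp51*, which demethylates lanosterol, stood at 73.1, 271.9 and 242.1 CPM at 24 h TNF and at 33.9, 58.6 and 47.7 CPM at 72 h TNF (log2 fold change -2.07 ± 0.39, adjusted p = 0.00189). *Idi1*, the isopentenyl diphosphate isomerase, stood at 6.99, 39.7 and 35.1 CPM and then at 4.23, 6.56 and 4.88 CPM (log2 fold change -2.38 ± 0.48, adjusted p = 0.00286). For both genes replicate 1 was lowest in both groups and already low at 24 h.

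*Sqle*, the squalene epoxidase, stood at 152.4, 485.1 and 462.0 CPM and then at 78.1, 348.7 and 336.7 CPM (adjusted p = 0.504, and 0.0368 with the block). *Hmgcs1*, a synthase of the mevalonate pathway, stood at 290.7, 950.8 and 895.3 CPM and then at 177.1, 302.8 and 278.4 CPM, the groups overlapping through replicate 1 (log2 fold change -1.49 ± 0.35, adjusted p = 0.00799, and 0.0568 without 24 h TNF replicate 2).

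The *Hmgcs1* promoter is shown as the only member found to hold a sterol regulatory element, the site of SREBP factors, searched as TCACNCCAC on both strands. Its 250 bases before the start lie at chr13:119690101-119690350 on the plus strand (RefSeq, GRCm38.p6), with the element in capitals.
*Hmgcs1*: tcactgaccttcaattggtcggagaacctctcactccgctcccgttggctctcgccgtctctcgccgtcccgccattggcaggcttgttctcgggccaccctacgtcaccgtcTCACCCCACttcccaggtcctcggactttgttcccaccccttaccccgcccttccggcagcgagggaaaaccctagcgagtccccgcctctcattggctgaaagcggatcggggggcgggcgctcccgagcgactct
Of 17 members with a promoter in the table, 1 held these letters, 5.88% against 1.03% of all promoters, and variants of the element were not searched.

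The matrix genes *Ncan*, *Tnc* and *Tnr* were among the 12 largest falls, and *Fn1* is a member of the basement membrane list. *Ncan*, the proteoglycan neurocan of the juvenile brain matrix (chr8:70093085-70120873, minus strand), stood at 667.7, 2257 and 2660 CPM at 24 h TNF and at 137.0, 80.6 and 103.7 CPM at 72 h TNF (log2 fold change -4.12 ± 0.36, adjusted p = 1.95e-06). *Tnc*, the glycoprotein tenascin C of the stem cell niche, stood at 108.3, 723.4 and 701.3 CPM and then at 22.6, 53.9 and 54.1 CPM (log2 fold change -3.55 ± 0.47, adjusted p = 8.63e-05). *Fn1*, fibronectin, stood at 504.1, 1368 and 1252 CPM and then at 113.3, 155.5 and 178.4 CPM (log2 fold change -2.8 ± 0.36, adjusted p = 5.89e-05). Replicate 1 was lowest at 24 h for all 3. The groups did not overlap, which the naming rule required of *Ncan* and *Tnc*. *Tnr*, tenascin R, had a log2 fold change of -3.64 ± 0.55.

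Among 28 collagens, laminins and other basement membrane genes tested, 10 were called lower and 3 higher, 35.7% and 10.7% against 7.93% and 5.38% of all genes. The chains of collagen VI fell together, *Col6a1* with a log2 fold change of -1.76 ± 0.41, *Col6a2* with -2.21 ± 0.47 and *Col6a3* with -3.81 ± 0.6. *Col6a1* stood at 221.9, 131.8 and 162.6 CPM and then at 102.9, 23.9 and 25.1 CPM, with replicate 1 highest in both groups. *Col8a1*, of the same short-chain type as *Col8a2*, was among the 3 higher (log2 fold change 1.27 ± 0.31, adjusted p = 0.00986), but not without 72 h TNF replicate 2 (0.0543) or 3 (0.0571). The 3 higher became 1 without 24 h TNF replicate 2 and 0 without 72 h TNF replicate 2 or 3. Of 19 matrix proteases and inhibitors tested, 4 were called lower and 1 higher, 21.1% and 5.26%. The lower count was 2 with the block, and the higher count was 2 without 72 h TNF replicate 1. The 1 higher, *Mmp2*, the gelatinase that cleaves collagen IV, rose from 12.5, 1.64 and 2.83 CPM to 37.1, 17.3 and 20.0 CPM (log2 fold change 2.12 ± 0.48, adjusted p = 0.00625). *Adam12*, a metalloprotease, fell from 5.73, 24.0 and 23.4 CPM to 2.25, 4.0 and 2.82 CPM (log2 fold change -2.55 ± 0.38, adjusted p = 0.000246).

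Of 20 genes of neural stem cells and radial glia, 6 were called lower and 1 higher, 30.0% and 5.0% against 7.93% and 5.38% of all genes. The higher count was 3 without 24 h TNF replicate 1, and 0 without replicate 2 of either group and with the block. *Fabp7*, the brain fatty acid binding protein of radial glia, stood at 605.8, 2025 and 1736 CPM and then at 234.1, 462.4 and 375.5 CPM (log2 fold change -2.03 ± 0.33, adjusted p = 0.000541). The Notch effectors *Hes1* and *Hes5*, which hold cells in the progenitor state, had log2 fold changes of -1.97 ± 0.34 and -2.94 ± 0.63 (adjusted p = 0.000981 and 0.00456). *Nes*, the stem cell filament nestin, stood at 495.0, 826.4 and 840.0 CPM and then at 260.5, 598.1 and 625.4 CPM, lower in every pair of equal number. It was not called in the 18-library fit (adjusted p = 0.23) and was called with the block (log2 fold change -0.58, adjusted p = 0.0398).

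Genes of other neural lineages fell more often than they rose. Of 16 oligodendrocyte lineage and myelin genes tested, 8 were called lower and 1 higher, 50.0% and 6.25% against 7.93% and 5.38% of all genes. The lower count was 3 without 24 h TNF replicate 2 or 3, 5 without 72 h TNF replicate 2 and 4 without 72 h TNF replicate 3. *Olig2*, a transcription factor of the lineage, stood at 49.1, 79.3 and 93.7 CPM and then at 27.5, 39.1 and 44.7 CPM (log2 fold change -1.0 ± 0.19, adjusted p = 0.0019). *Sox8*, a partner of the lineage factor SOX10, stood at 28.2, 47.1 and 59.7 CPM and then at 12.6, 17 and 18.3 CPM (log2 fold change -1.49 ± 0.22, adjusted p = 0.000216). *Cnp*, the nucleotide phosphodiesterase of myelin, was the 1 member called higher, from 137.3, 84.5 and 100.3 CPM to 247.8, 192.4 and 218.4 CPM (log2 fold change 1.03 ± 0.2, adjusted p = 0.0024).

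In the list of neurons and neuronal precursors 6 of 19 were called lower, 31.6% against 7.93% of all genes, and none higher. The lower count was 3 in the blocked fit and 3 without 72 h TNF replicate 3. *Tubb3*, the neuronal beta-tubulin, stood at 13, 43.7 and 55.5 CPM and then at 6.09, 11.6 and 15.1 CPM, the groups overlapping through replicate 1 (log2 fold change -1.78 ± 0.39, adjusted p = 0.00539). Summed over all 24 genes of the list, levels were 2805, 3061 and 2783 CPM at 24 h TNF and 2928, 3040 and 2784 CPM at 72 h TNF, and 10 members were lower and 2 higher in all 3 pairs.

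Of 24 genes of glycolysis and the hypoxia response, 8 were called lower and 3 higher, 33.3% and 12.5% against 7.93% and 5.38% of all genes. The lower count was 4 without 24 h TNF replicate 3 or 72 h TNF replicate 2, and 5 without 72 h TNF replicate 3. *Ldha*, lactate dehydrogenase A, stood at 281.1, 306.3 and 330.9 CPM and then at 124.5, 94.5 and 105.6 CPM (log2 fold change -1.5 ± 0.15, adjusted p = 1.04e-05). *Pgk1*, phosphoglycerate kinase, stood at 175.1, 155.2 and 172.4 CPM and then at 104.0, 90.9 and 95 CPM (log2 fold change -0.79 ± 0.15, adjusted p = 0.00159). In the opposite direction *Ndrg1*, a hypoxia- and differentiation-linked gene, stood at 31.8, 5.07 and 6.31 CPM and then at 60.7, 69.9 and 67.4 CPM (log2 fold change 2.19 ± 0.43, adjusted p = 0.00224).

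Among 22 targets of the antioxidant factor NRF2, 4 were called higher and 1 lower, 18.2% and 4.55% against 5.38% and 7.93% of all genes. The higher count was 2 without 24 h TNF replicate 2, without replicate 3, or without 72 h TNF replicate 1. The lower count was 3 without 24 h TNF replicate 1, 2 without 72 h TNF replicate 1 and 0 without any of the other 4 libraries. *Gstm1*, a glutathione transferase, rose from 132.4, 140.8 and 157.6 CPM to 333.2, 450.7 and 478.1 CPM (log2 fold change 1.55 ± 0.18, adjusted p = 2.51e-05). Outside this list, *Atf3*, a stress-induced transcription factor, fell from 23.1, 14.6 and 17 CPM to 11, 3.02 and 4.0 CPM (log2 fold change -1.6 ± 0.35, adjusted p = 0.00539). Lysosomal genes were called lower in 2 of 26, immediate early genes higher in 1 and lower in 1 of 23, contractile genes higher in 1 and lower in 3 of 16, and genes of ATF4 and the unfolded protein response higher in 2 and lower in 2 of 24. The shares lower were 7.69%, 4.35%, 18.8% and 8.33%, against 7.93% of all genes. The shares higher of the last 3 lists were 4.35%, 6.25% and 8.33%, against 5.38%. With single libraries left out the lower counts ranged from 0 to 3, 1 to 5, 1 to 5 and 1 to 5 in the same order, and the higher counts of the last 3 lists from 0 to 3, 1 to 2 and 1 to 2. *Acta2*, smooth muscle actin, stood at 90.3, 527.0 and 492.5 CPM and then at 49.2, 186.0 and 201.8 CPM. It was not called (adjusted p = 0.0923) except with the block (0.0118) or without 24 h TNF replicate 1 (0.00489).

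Among transcription factor genes that the study names, *Rxra*, the retinoid X receptor partner of many nuclear receptors, stood at 43.6, 36.8 and 44.0 CPM and then at 64.2, 52.2 and 69.4 CPM (log2 fold change 0.58 ± 0.13, adjusted p = 0.00793). Its call was lost without 24 h TNF replicate 2 (0.0503) and without 72 h TNF replicate 3 (0.0502). *Stat3*, which drives astrocyte genes, stood at 283.2, 313.1 and 348.8 CPM and then at 263.6, 208.9 and 239.6 CPM (log2 fold change -0.41 ± 0.12, adjusted p = 0.0321). It was not called with the block (0.079) or without replicate 2 or 3 of either group (0.0842 to 0.16). *Smad3* (adjusted p = 0.088) and *Nfe2l2*, which encodes NRF2 (adjusted p = 0.127), were not called, though both were called higher among genes with at least 10 counts in every library (0.0257 and 0.03), and *Smad3* also without 72 h TNF replicate 1 (0.0435).

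Whether these changes belong to TNF-treated cells was asked with the untreated cells over the same interval and with the difference of the 2 changes. Without TNF 4970 genes were called between 24 h and 72 h, 24.8% of those tested, 2439 (12.2%) higher and 2531 (12.6%) lower. The comparisons share no libraries. Called in the same direction in both were 1962 genes, which is 73.5% of the genes called with TNF and 39.5% of those called without. In opposite directions there were 7, all of them lower with TNF and higher without. With TNF and not without 701 were called, and for 3 of these the difference between the changes was called. The difference itself was called for 92 genes, 0.458% of those tested, with 65 (0.324%) below and 27 (0.135%) above 0. This count fell most without some untreated libraries: it was 27, 31 and 28 without 24 h replicate 1, 2 or 3, and 25 without 72 h replicate 2 or 3. It rose to 126 without 72 h replicate 1 and to 133 without 72 h TNF replicate 1. It was 58 without 72 h TNF replicate 2 and 50 without 72 h TNF replicate 3.

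**Figure D3:**
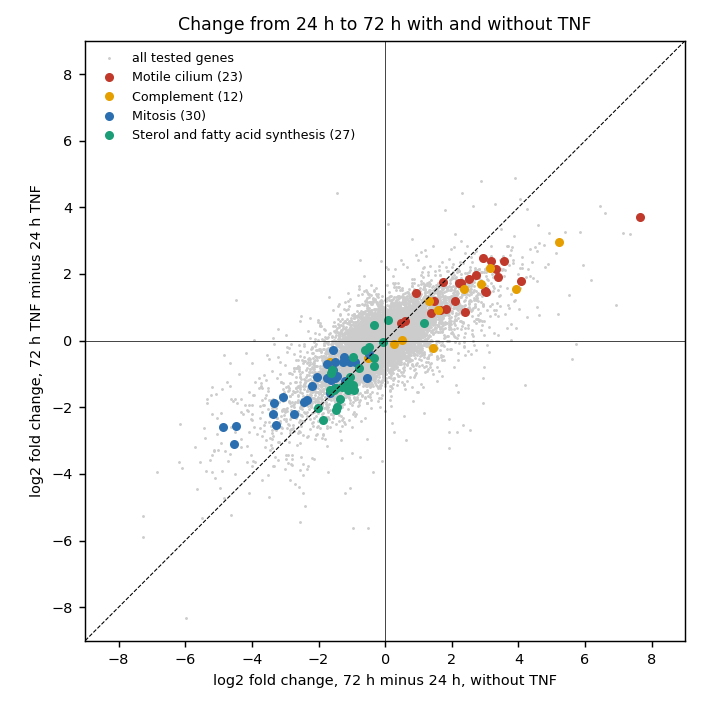
Change from 24 h to 72 h with TNF (vertical) against the change without TNF (horizontal) in log2 fold change, for all 20067 tested genes (grey) and the tested members of 4 lists. The dashed line marks equal change. Cilium members and most complement members lie to the upper right and mitosis and sterol members mostly to the lower left, and the median of the cilium list was 1.72 with TNF and 2.39 without.

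Cilium, mitosis, sterol and complement genes were also called in the untreated cells. Cilium genes were higher in 22 of 23 without TNF, with a median log2 fold change of 2.39 against 1.72, and no member's difference was called. *Cfap52* and *Daw1*, cilium genes outside the list that were named after their values were seen, rose in both and less with TNF (log2 difference -2.56 and -1.86, adjusted p = 0.019 and 0.0257), calls that were lost without 4 and 7 of the 12 libraries, each left out in turn. Mitosis genes were lower in 28 of 30 without TNF, with a median of -1.65 against -1.16, and sterol genes lower in 20 of 27 and higher in 1, with -1.12 against -1.23. No difference was called in either list. Complement genes were higher in 8 of 12 and lower in 1. *C3* rose in untreated cells from a mean of 3.24 CPM to 116.0 CPM, below the 24 h TNF and 72 h TNF means of 183.0 and 1422 CPM, and its difference was not called (log2 difference -2.26 ± 0.69, adjusted p = 0.208).

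Of the 65 genes with a difference below 0, 62 rose without TNF, and of these 42 were not called with TNF and 15 rose with it. *Ccl2* fell with TNF, whereas in untreated cells it stood at 0.151, 0.112 and 0.489 CPM at 24 h and at 0.832, 1.23 and 2.04 CPM at 72 h, below the TNF-treated levels throughout (log2 difference -5.23 ± 0.57, adjusted p = 0.000255). *Clu* rose in both, but reached 655.5, 859.1 and 895.4 CPM without TNF against 243.4, 343.8 and 367.0 CPM with it (log2 difference -1.63 ± 0.26, adjusted p = 0.00775). *Chgb*, the granin of secretory vesicles, stood at 12.0, 20.9 and 15.7 CPM at 72 h without TNF and at 0.507, 0.812 and 0.375 CPM at 72 h with it (log2 difference -4.08 ± 0.51, adjusted p = 0.000911).

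*Elobl*, a gene named for its likeness to elongin B, stood at 63.7, 76.4 and 93.3 CPM at 72 h without TNF and at 1.01, 5.34 and 5.07 CPM with it (log2 difference -6.14 ± 0.87, adjusted p = 0.00348). *Tmem266*, a voltage sensor protein, had a log2 difference of -3.77 ± 0.6 (adjusted p = 0.00665). The differences of *Ccl2*, *Clu*, *Chgb*, *Elobl* and *Tmem266* were called with each of the 12 libraries left out. Those of *Lcn2* (log2 difference -5.52, adjusted p = 0.0275) and of the chemokine *Cxcl10* (-3.84, 0.0444) rest on untreated 24 h libraries of which 2 were at 0, so that their size depends on the prior count of the fit. *Lcn2* kept the call in 7 of the 12 fits that leave out a library and *Cxcl10* in 4, with the highest adjusted p of 0.108 without 24 h replicate 1 and of 0.17 without 24 h replicate 2.

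**Figure D4:**
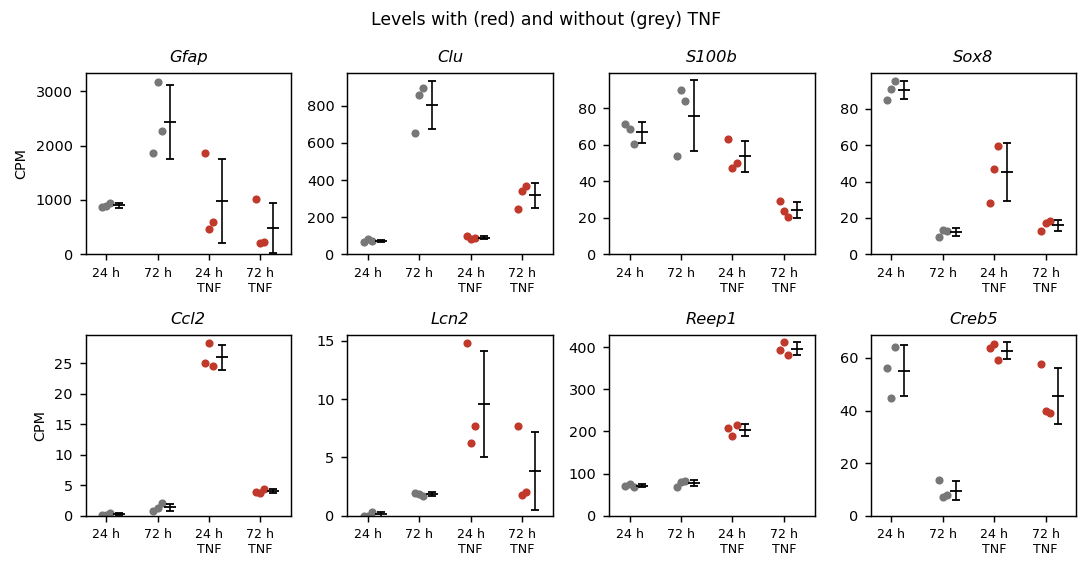
Levels of 8 genes in CPM in the untreated (grey) and TNF-treated (red) libraries at 24 h and 72 h, each dot a library, with mean ± SD (n = 3) beside the dots in black. *Clu* rises in both but less with TNF, *Ccl2* is high at 24 h with TNF alone, and *Reep1* rises with TNF alone.

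Of the 34 astrocyte genes tested, 3 had a called difference, all below 0, against 0.324% of all genes. They were *Clu*, given above, *S100b* and *Slc14a1*, a urea transporter named after its values were seen (log2 difference -3.01, adjusted p = 0.0212), which lost the call in 8 of the 12 fits that leave out a library. *S100b* fell with TNF, while in untreated cells it stood at 71.2, 68.8 and 60.5 CPM at 24 h and at 53.9, 90.1 and 84.0 CPM at 72 h (adjusted p = 0.508). The log2 difference was -1.32 ± 0.26 (adjusted p = 0.0309) but stayed called in 4 of the 12 fits that leave out a library, with the highest adjusted p of 0.12 without 24 h replicate 3. *Gfap* had a mean of 899.0 ± 44.6 CPM at 24 h and 2432 ± 673.0 CPM at 72 h without TNF (SD, n = 3), and its log2 difference of -2.43 ± 0.77 was not called (adjusted p = 0.232).

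In the other direction, 27 genes had a difference above 0, of which 26 fell without TNF and 12 fell in both. *Creb5*, a CREB family transcription factor, stood at 56.3, 44.8 and 64.1 CPM at 24 h and at 13.7, 6.99 and 7.76 CPM at 72 h without TNF. With TNF it stood at 63.8, 65.2 and 59.1 CPM and then at 57.8, 39.7 and 39.0 CPM (log2 difference 2.08 ± 0.37, adjusted p = 0.0147). *Fbn2*, the microfibril protein fibrillin 2, behaved alike (log2 difference 1.72 ± 0.3, adjusted p = 0.0139), as did the ETS factor *Etv4* (1.94 ± 0.38, 0.0266). *Fbln2*, a fibulin of the matrix, and *Sez6l* fell in both and less with TNF (1.95 ± 0.42 and 1.68 ± 0.34, adjusted p = 0.0447 and 0.0363), and *Inpp5j*, an inositol phosphatase, fell without TNF alone (2.75 ± 0.59, 0.0446). None of these 6 kept the call in all 12 fits that leave out a library. *Fbn2* kept it in 10, *Creb5* in 9, *Etv4* and *Sez6l* in 5, *Fbln2* in 2 and *Inpp5j* in 1.

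The 3 genes called with TNF, not without, and different between them were chosen after their values were seen. *Reep1*, which shapes the endoplasmic reticulum, stood at 208.0, 188.5 and 214.9 CPM at 24 h TNF and at 393.2, 412.7 and 381.7 CPM at 72 h TNF. Without TNF it stood at 67.2 to 75.5 CPM and at 69.2 to 82.1 CPM (log2 difference 0.85 ± 0.16, adjusted p = 0.0218, lost without any of 4 libraries). *Fgl2*, a secreted prothrombinase, fell from 4.98, 9.1 and 8.55 CPM to 1.63, 0.987 and 0.688 CPM with TNF and had a mean of 6.9 CPM at 24 h and 8.32 CPM at 72 h without (log2 difference -3.03 ± 0.39, adjusted p = 0.001). The third was *S100b*. Of the genes that moved in opposite directions, *F13a1*, a chain of coagulation factor XIII, fell with TNF from 1.13, 0.82 and 1.18 CPM to 0.169, 0.232 and 0.125 CPM and rose without it from 0.163 to 0.302 CPM to 0.832 to 1.35 CPM (log2 difference -4.86 ± 0.66, adjusted p = 0.00158).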

How the data were processed

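The authors deposited raw gene counts, whole numbers for 54838 genes in 18 libraries prepared with strand kept after ribosomal RNA removal. The submitters' processing notes name FastQC, Trim Galore, STAR, SAMtools, featureCounts and mm10. Versions and the strand setting of the counting are not given in the sources used here, so reads of overlapping genes are uncertain.

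GENCODE M21 gave coordinates for 54809 genes. Genes were filtered by condition (filterByExpr, 20067 kept) and fitted in edgeR 4.0.16 with TMM factors, a mean per condition and Benjamini-Hochberg adjustment, and DESeq2 1.42.0 was an alternative. CPM used TMM library sizes, and SEs were derived from the F statistic. In counts simulated for 72 h TNF against 24 h TNF over 20067 genes, edgeR found 94% of 4-fold and 64% of 2-fold changes, and 10 of 168 calls were false. The simulated libraries had no effect of the replicate number and no replicate that stood apart, and only genes above a minimum mean count were changed. These rates may therefore not hold for the real libraries. The replicate numbers were treated as pairs under TNF, since deviations of same-numbered libraries from their group means correlated over genes at 0.291, 0.255 and 0.266. Untreated pairs gave 0.077, 0.117 and -0.371 and were not taken as paired. The column of untreated 72 h replicate 3 carries the replicate digit 4, and it was assigned by its time, treatment and library number. The blocked fit in the results used the 6 TNF-treated libraries.

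The members, gene lists and motifs were chosen with earlier results of these data known. Named were the 12 largest and 12 smallest log2 fold changes among protein-coding genes called, also with each of the 6 libraries left out, without overlap and with a mean of at least 5 CPM in the higher group. Also named were the 6 largest and 6 smallest called differences with at least 5 CPM in 1 of the 4 groups, list members, and genes that the study names. Results for some genes that this rule names are not reported here.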

Additional observations from a re-analysis of the deposited data

Results flagged for a closer look

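Results are listed here because the change from 24 h to 72 h differed between TNF-treated and untreated cells by the test of the difference itself, given on the log2 scale as the change with TNF minus the change without. In all, 92 genes differed. Below 0 were *Elobl* (-6.14), *Lcn2* (-5.52), *Ccl2* (-5.23), *F13a1* (-4.86), *Chgb* (-4.08), *Cxcl10* (-3.84), *Tmem266* (-3.77), *Fgl2* (-3.03), *Myh8* (-2.55), *Clu* (-1.63) and *S100b* (-1.32). Above 0 were *Inpp5j* (2.75), *Creb5* (2.08), *Fbln2* (1.95), *Etv4* (1.94), *Fbn2* (1.72), *Sez6l* (1.68), *Sox8* (1.4) and *Reep1* (0.85).

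*Myh8* fell in both, from 54.6, 54.2 and 53.5 CPM to 8.7, 7.49 and 14.0 CPM without TNF (difference adjusted p = 0.019), and its difference stayed called in 9 of the 12 fits that leave out a library. *Sox8* fell less with TNF (adjusted p = 0.0479), and its difference stayed called in 3 of those 12 fits.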

How the results depend on the processing

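The count of 2670 genes for 72 h TNF against 24 h TNF became 828 in a fit of only those 6 libraries, 1340 with a log2 fold change of at least 1, 5398 at an unadjusted p under 0.05, and 1233 to 3802 with single libraries left out. DESeq2 gave 2888, RLE normalization 2654, and the replicate block 2311 in the 6-library fit. The untreated count of 4970 became 2681 with a log2 fold change of at least 1, 3286 with the replicate block and 72 h replicate 3 unpaired (chosen after seeing the data, since its column carries another number), and 3494 to 5200 with single libraries left out. The count of 92 differing genes became 239 with DESeq2, 56 with at least 10 counts in every library, 38 in the fit of the 12 libraries, 57 with their replicate block, 24 with the block and 72 h replicate 3 unpaired, 2018 unadjusted, and 25 to 133 with single libraries left out. These blocks include untreated libraries whose numbers were not taken as pairs. Of 19 named genes with a called difference, 6 were not called with the block of the 12 libraries. They were *Fbln2* (adjusted p = 0.142), *Cxcl10* (0.0987), *S100b* (0.0698), *Inpp5j* (0.0682), *Sez6l* (0.0613) and *Myh8* (0.0564). With 72 h replicate 3 unpaired 10 were not called, *Elobl* (0.0514) among the 10. The 159 list members became 64 in the 6-library fit, 245 unadjusted, and 105 to 204 with single libraries left out. The cause was not tested.

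Of 102 named genes under 13 alternatives, 1226 of 1290 values kept direction and call, 39 lost the call, 18 gained it and 7 changed sign. The sign changed for genes not called: *Inpp5j* (-0.19) to 0.01 without 24 h TNF replicate 3 and 0.16 without 72 h TNF replicate 2, *Elobl* (-0.54) to 0.99 without 24 h TNF replicate 1, and *Aqp4* (-0.04) to 0.03 with the replicate block, 0.5 without 24 h TNF replicate 1, and 0.05 and 0.15 without 72 h TNF replicate 2 or 3. Their lowest values with a library left out were -0.71, -0.97 and -0.36. Apart from the genes given with a blocked p, the block in the 6-library fit changed no other call of a named gene. In the simulated counts, with 3 libraries a group, 2-fold changes were missed more often than 4-fold ones.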
